A study of Mus musculus with 2 samples.

Results

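The 8 genes described here are Srebf2 and 7 genes of cholesterol synthesis that the factor it encodes is known to switch on, Hmgcs1, Idi1, Fdps, Fdft1, Sqle, Cyp51 and Dhcr7. They were taken by gene symbol, from a list drawn up with earlier results of these data known that does not hold every gene of the pathway, out of a table of 18888 genes, and all 8 reached 1 FPKM in at least one of the libraries, the filter that 12263 genes passed. FPKM count fragments per length of the gene and per depth of the library, so that levels of different genes can be set side by side.

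The RNA came from 46C mouse embryonic stem cells (mESCs), a line kept on gelatin in conventional ESC medium. PB mESCs carry the empty PiggyBac vector, and PB-TERRA mESCs carry the same vector with telomeric repeats, from which polyadenylated TERRA, the noncoding RNA of telomeres, is expressed. Both lines were at the same range of passages, and whether each was a pool or a clone is not stated. Each condition has 1 library of total RNA, so the comparisons below set these 2 libraries against each other with no replicate check and no test between the conditions. In bulk RNA, fewer cells that express a gene and less RNA per cell cannot be told apart.

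Depth was read from the low values of short genes, which lie near whole multiples of what 1 read is worth. With 114 bases taken off every gene length, a fitted constant, 78.6% of 690 such values in PB and 83.7% of 755 in PB-TERRA were whole within rounding and 0.01 reads, where rounding alone would give 17.6%. The step of 1 read corresponds to about 24700000 reads on genes in PB and 24800000 in PB-TERRA. Read numbers below are estimates from this step, and the 95% intervals made from them, exact binomial for a ratio and exact Poisson for a level, cover counting error only. The stem cell markers Pou5f1, Nanog, Sox2, Esrrb and Zfp42 were high in both libraries, with summed levels of 1383 FPKM in PB and 1421 FPKM in PB-TERRA.

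Cholesterol is built from acetyl-CoA. The early steps run through mevalonate to the isoprenoid diphosphates, the middle steps join isoprenoid units to squalene and close the ring to lanosterol, and the late steps trim lanosterol to cholesterol. When the membrane of the endoplasmic reticulum is poor in sterol, the chaperone SCAP carries SREBP2 to the Golgi, where the site-1 and site-2 proteases, encoded by Mbtps1 and Mbtps2, free its transcription factor domain. This domain binds sterol regulatory elements in the promoters of the synthesis genes, often beside sites for NF-Y (CCAAT) and SP1 (GGGCGG). When sterol is plentiful, the Insig proteins hold SCAP in the endoplasmic reticulum and the genes quieten together. Dividing cells need cholesterol for new membranes, and in the embryo it is also needed for Hedgehog signalling.

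Promoters are shown because SREBP2 acts on its target genes through such sequences. RefSeq promoter windows of GRCm38.p6, from 250 bases before to 50 bases after the start, were matched by gene number for 5 of the 8 genes, with 7 starts in all (Dhcr7 has 3). The 200 bases before the only listed start of 4 genes are given 5′ to 3′ on the gene's strand, with matches to the sterol regulatory element TCACNCCAC, CCAAT or GGGCGG on either strand in capitals.
Hmgcs1 (chr13:119690151-119690350, + strand): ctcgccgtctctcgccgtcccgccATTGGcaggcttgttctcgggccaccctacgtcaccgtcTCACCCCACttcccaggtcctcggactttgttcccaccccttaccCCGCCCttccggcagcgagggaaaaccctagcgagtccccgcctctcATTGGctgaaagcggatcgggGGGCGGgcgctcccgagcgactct
Idi1 (chr13:8885406-8885605, + strand): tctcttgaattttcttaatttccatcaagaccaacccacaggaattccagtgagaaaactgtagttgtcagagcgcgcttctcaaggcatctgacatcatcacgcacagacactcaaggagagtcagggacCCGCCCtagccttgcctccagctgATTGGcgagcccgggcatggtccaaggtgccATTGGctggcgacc
Srebf2 (chr15:82147069-82147268, + strand): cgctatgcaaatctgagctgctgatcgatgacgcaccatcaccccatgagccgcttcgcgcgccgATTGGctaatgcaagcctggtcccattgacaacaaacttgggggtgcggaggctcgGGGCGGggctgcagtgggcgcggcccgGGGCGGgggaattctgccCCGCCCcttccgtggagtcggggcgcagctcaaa
Cyp51 (chr5:4104698-4104897, - strand): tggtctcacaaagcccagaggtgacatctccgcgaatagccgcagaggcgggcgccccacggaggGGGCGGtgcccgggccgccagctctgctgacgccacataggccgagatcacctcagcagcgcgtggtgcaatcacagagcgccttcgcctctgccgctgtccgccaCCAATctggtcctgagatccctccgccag

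The full element TCACNCCAC was found, on the strand of the gene with its first base at -137 from the start, in Hmgcs1 alone among the 5 genes. It occurs on either strand in 1.24% of all 32851 promoter windows, and the shorter CACNCCAC, which it contains, in 6.24%. CCAAT was found in all 5 genes, in 5 of their 7 windows, against 37.41% of all windows. Counted from the gene start, its first base lies at -45 and -14 in Idi1, at -29 in Cyp51, at -135 in Srebf2, and at -237, -176 and -45 in Hmgcs1, where a further copy lies past the start. The third start of Dhcr7 has 2 copies, at -85 and -49. GGGCGG was found in all 5 genes and in 6 of the 7 windows, against 35.66% of all windows. The E-box CACGTG was found at 1 start of Dhcr7 only, against 7.15% of all windows. Fdps, Fdft1 and Sqle are named without a sequence. A match is a run of letters and not a measured binding site.

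All 8 genes were lower in PB-TERRA than in PB mESCs, as were 50.9% of all genes past the filter, and for all 8 the counting interval of the ratio lay below 0. Of all genes past the filter with an interval, 17.6% had an interval below 0 and 18.1% had one above it. The differences were small. None of the 8 genes reached a log2 ratio of 1 in either direction, which 0.913% of all genes did, and 3 of the 8 (Fdps, Dhcr7 and Cyp51) were lower by at least 0.25, against 9.6% of all genes. In the upward direction 0 of the 8 reached 0.25, against 8.02% of all genes. The median log2 ratio of the 8 genes was -0.23, and that of all genes was -0.0044. Summed over the 8 genes the level was 520.0 FPKM in PB and 435.76 FPKM in PB-TERRA (log2 ratio of the sums -0.26). Apart from the ratio of the sums, these ratios are PB-TERRA over PB on the scale of log2(FPKM + 0.1). With both libraries scaled to the same sum, which raised the median ratio of all genes by 0.04, all 8 were still lower. Under this scaling 1 of the 8 (Fdps) and not 3 was lower by at least 0.25, as were 947 of the 12263 genes past the filter. The interval lay below 0 for 7, without Idi1. The share of all genes with an interval below 0 is not given for this scaling.

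Genes with higher levels vary less between the libraries, so the 8 genes were also set beside the 3467 genes with 20 to 120 FPKM in PB, a range that holds all 8. Among these genes 4.21% were lower by at least 0.25 and 23.2% had an interval below 0. Their log2 ratios had a median of -0.0056 and an SD of 0.15, and the middle 90% lay from -0.23 to 0.19. Fdps, Dhcr7, Cyp51 and Fdft1 lay below that middle range, whereas Srebf2, Sqle, Hmgcs1 and Idi1 lay inside it. Fdft1 (-0.2318) passed the lower edge (-0.2314) by very little. The counting intervals of Dhcr7, Cyp51, Fdft1, Srebf2 and Sqle included that edge, so counting error leaves their side of it open.

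Srebf2, the gene of the regulator itself, had 64.67 FPKM in PB and 55.42 FPKM in PB-TERRA, 14.3% lower. The log2 ratio was -0.22 (95% interval of the reads -0.27 to -0.17, from 7122 and 6128 reads), and 11.4% of all genes had a lower ratio. Srebf2 is known to be a target of its own product. Its interval overlapped those of Fdft1, Sqle, Cyp51, Dhcr7 and Hmgcs1.

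Hmgcs1, the cytosolic HMG-CoA synthase of the mevalonate route, had 115.4 FPKM in PB and 103.84 FPKM in PB-TERRA. Its log2 ratio of -0.15 (-0.19 to -0.11) rests on 9752 and 8810 reads, the most of the 8 genes. Idi1, the isomerase that makes the reactive dimethylallyl unit, had 63.31 and 60.41 FPKM, the smallest relative difference of the 8 genes. Its log2 ratio was -0.07, the interval ended just below 0 (-0.13 to -0.0059), and 33.9% of all genes had a lower ratio. The value was -0.16 with GC and length bins and -0.03 with both libraries scaled to the same sum, and its interval no longer lay below 0 under that scaling or with length bins. Its close relative Idi2 had 0.06 and 0.08 FPKM.

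Fdps, the farnesyl diphosphate synthase at the branch between sterols, dolichol, ubiquinone and protein prenylation, differed most. It had 118.69 FPKM in PB, the highest level of the 8 genes, and 81.58 FPKM in PB-TERRA, 31.3% lower. The log2 ratio was -0.54 (-0.62 to -0.46) from 3379 and 2332 reads, and 2.06% of all genes, or 0.37% of genes of 20 to 120 FPKM, had a lower ratio. The interval of Fdps did not overlap that of any other of the 8 genes. A gene model of the authors in the same orthology group had 0.01 and 0.04 FPKM.

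Fdft1, squalene synthase, takes farnesyl diphosphate into the part of the pathway that serves sterols alone. It had 44.43 FPKM in PB and 37.82 FPKM in PB-TERRA (log2 ratio -0.23, -0.30 to -0.17). Sqle, the squalene monooxygenase that adds the first oxygen and is a control point of the later pathway, had 53.42 and 46.42 FPKM (log2 ratio -0.20, -0.27 to -0.13). The intervals of these neighbouring steps overlapped.

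Cyp51, the lanosterol demethylase, had the lowest level of the 8 genes, 25.52 FPKM in PB and 21.37 FPKM in PB-TERRA (log2 ratio -0.25, -0.34 to -0.17). Dhcr7, the reductase of the last step of one branch to cholesterol, had 34.56 and 28.9 FPKM (log2 ratio -0.26, -0.35 to -0.17). Both were about 16% lower (16.3% and 16.4%), and their intervals overlapped each other and those of Fdft1 and Sqle.

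**Figure D1:**
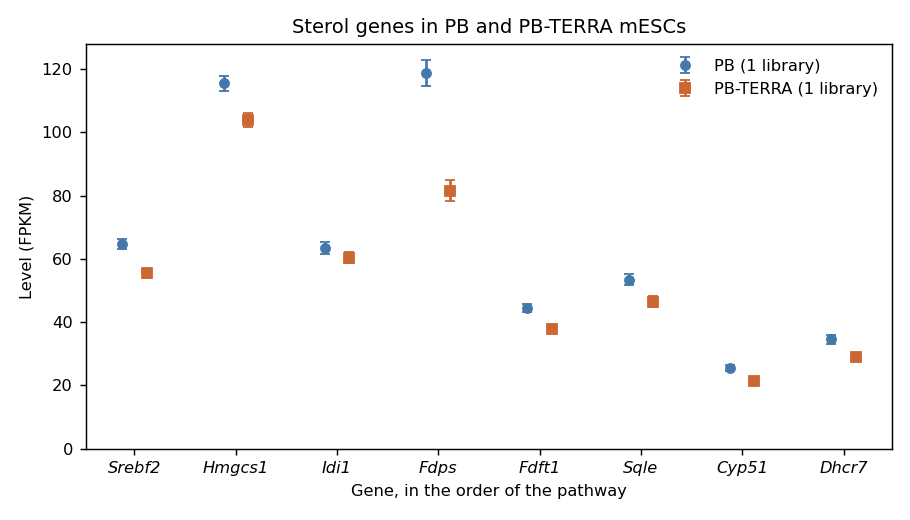
Level in FPKM of the 8 sterol genes, with Srebf2 first and the enzymes in the order of their steps. Circles are the PB library and squares the PB-TERRA library, and bars are exact 95% Poisson intervals of the reads. The PB-TERRA value lies below the PB value for all 8 genes, with the widest gap for Fdps (118.69 and 81.58 FPKM) and the narrowest, in FPKM, for Idi1 (63.31 and 60.41 FPKM).

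In PB the order of levels was Fdps, Hmgcs1, Srebf2, Idi1, Sqle, Fdft1, Dhcr7 and Cyp51. Fdps and Hmgcs1 did not differ beyond counting error, and neither did Srebf2 and Idi1, while all other neighbours did. In PB-TERRA the order was the same but for these pairs, with Hmgcs1 above Fdps and Idi1 above Srebf2, and no pair of neighbours had overlapping intervals. Among the genes ranked here, the early enzymes Fdps and Hmgcs1 were thus the most abundant in either library, and the late enzymes Dhcr7 and Cyp51 the least. The further enzymes described below did not all keep to this order. Of the early ones, Mvk, Pmvk and Mvd lay below Dhcr7 in both libraries, and Acat2 lay above it. Of the late ones, Msmo1 and Lbr lay above Sqle in both libraries, whereas Nsdhl, Hsd17b7, Ebp, Sc5d and Tm7sf2 lay below Dhcr7.

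Another 12 enzymes of the pathway, listed with earlier results known and again not every enzyme, were also mostly lower. Of these, 11 were lower and 1 was higher in PB-TERRA, with a median log2 ratio of -0.25. The interval lay below 0 for 9, above 0 for 0 and included 0 for 3, and 6 were lower by at least 0.25. The shares over all genes were 50.9% lower, 17.6% with an interval below 0 and 9.6% lower by at least 0.25. Together with the 8 genes, 19 of 20 were lower, and for 17 of 20 the interval lay below 0. With both libraries scaled to the same sum, the interval lay below 0 for 7 of the 8 genes and 8 of the 12 enzymes.

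The enzymes of the mevalonate route ranged widely, from Mvk to Acat2. Mvk, mevalonate kinase, had 17.61 FPKM in PB and 12.13 FPKM in PB-TERRA (log2 ratio -0.53, -0.70 to -0.38), close to the ratio of Fdps. Pmvk, which adds the second phosphate, had 25.04 and 19.38 FPKM (-0.37, -0.54 to -0.20). Mvd, the decarboxylase that yields isopentenyl diphosphate, had 26.19 and 22.08 FPKM (-0.25, -0.38 to -0.12). Acat2, the thiolase of the entry step, had 48.31 and 46.19 FPKM, and its interval included 0 (-0.15 to 0.02).

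Lss, which folds oxidosqualene to lanosterol, had 21.18 FPKM in PB and 17.62 FPKM in PB-TERRA (log2 ratio -0.26, -0.34 to -0.19). Of the enzymes that remove the methyl groups of lanosterol, Nsdhl had 31.87 and 25.35 FPKM (-0.33) and Msmo1 had 68.32 and 60.36 FPKM (-0.18). Hsd17b7, the ketoreductase of the same complex, was the 1 gene that was higher, with 4.83 and 5.27 FPKM, and its interval included 0 (-0.05 to 0.30). Ebp, the isomerase of the sterol ring, had 16.46 and 13.23 FPKM (-0.31), and the desaturase gene Sc5d had 18.07 and 16.31 FPKM (-0.15). The sterol reductase step has 2 genes, of which Lbr, also a protein of the nuclear envelope, was the abundant one with 54.46 and 50.44 FPKM (-0.11). Tm7sf2 had 1.34 and 0.98 FPKM, and with only 46 and 34 reads this depth could not show a difference (-1.13 to 0.23).

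All 12 of these enzymes have a RefSeq promoter window. CCAAT was found in 11 of 12 genes and 11 of their 13 windows, and GGGCGG in 11 of 12 genes and 11 of 13 windows. CACNCCAC was found in 1 of them, Acat2, TCACNCCAC in 0 and CACGTG in 2, Hsd17b7 and Sc5d. Of all promoter windows 37.41% hold CCAAT, 35.66% GGGCGG, 6.24% CACNCCAC, 1.24% TCACNCCAC and 7.15% CACGTG. Mvk has 5 copies of CCAAT, with first bases from -173 to -14. Hsd17b7, which was higher in PB-TERRA, has copies at -165, -73 and -12. Whether the copies go with the ratios was not tested.

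**Figure D2:**
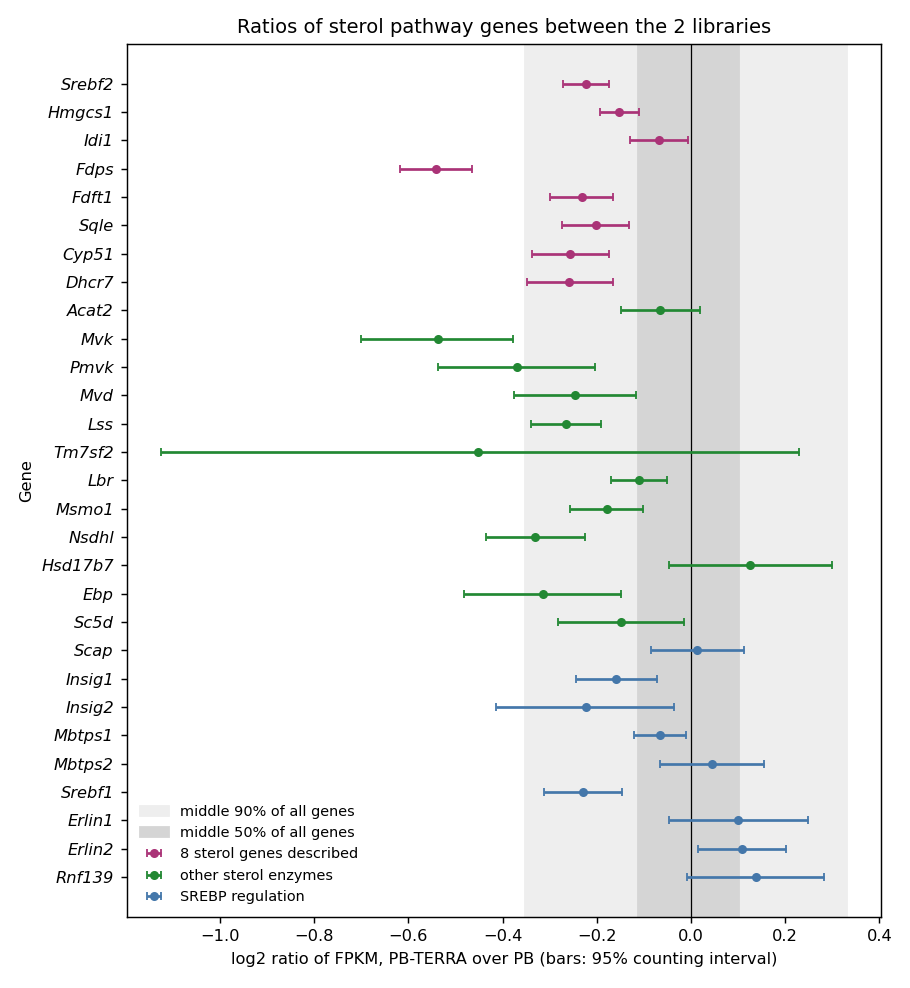
Log2 ratio of FPKM without a pseudocount, PB-TERRA over PB, for the 8 sterol genes, 12 other sterol enzymes and 9 genes of SREBP regulation. Points are the ratio of the 2 libraries, bars are 95% counting intervals, and the shaded bands are the middle 50% and 90% of all genes past the filter (log2 of FPKM + 0.1). Of the 20 enzyme and Srebf2 points 19 lie to the left of 0, with the points of Fdps, Mvk, Pmvk and Tm7sf2 outside the wider band, whereas the genes of SREBP regulation lie on both sides.

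The list of SREBP regulation, which also holds Srebf1, the gene of the related factor SREBP1, lay on both sides of 0. Of its 9 genes, 5 were higher and 4 lower, and 0 were lower by at least 0.25 (9.6% of all genes). Their median log2 ratio was 0.01, and it was -0.0022 with length bins and -0.03 with GC and length bins. The interval lay below 0 for 4 (17.6% of all genes), above 0 for 1 (18.1%) and included 0 for 4, and with both libraries scaled to the same sum it lay below 0 for 2. Scap, the sterol-sensing chaperone, had 16.62 FPKM in PB and 16.77 FPKM in PB-TERRA (log2 ratio 0.01, -0.09 to 0.11). Of the protease genes, Mbtps1 had 51.18 and 48.9 FPKM (-0.07, -0.12 to -0.0098), a ratio like that of Idi1, and Mbtps2 had 12.49 and 12.88 FPKM (0.04, -0.07 to 0.15).

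Insig1 and Srebf1, themselves known SREBP targets, were lower. Insig1, which retains SCAP, had 35.9 and 32.17 FPKM (log2 ratio -0.16, -0.25 to -0.07). Srebf1, whose product drives mainly fatty acid genes, had 24.25 and 20.69 FPKM (-0.23, -0.31 to -0.15). Insig2, the second gene of an SCAP-retaining protein, had 8.17 and 7.0 FPKM (-0.22, -0.41 to -0.04).

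The other genes of this list encode proteins of the endoplasmic reticulum, and of these Erlin2 had an interval above 0. Erlin2, of the erlin complex, had 18.86 and 20.34 FPKM (log2 ratio 0.11, 0.02 to 0.20), and Erlin1 had 9.53 and 10.22 FPKM (0.10, -0.05 to 0.25). The ubiquitin ligase gene Rnf139 had 7.06 and 7.77 FPKM (0.14, -0.01 to 0.28).

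**Figure D3:**
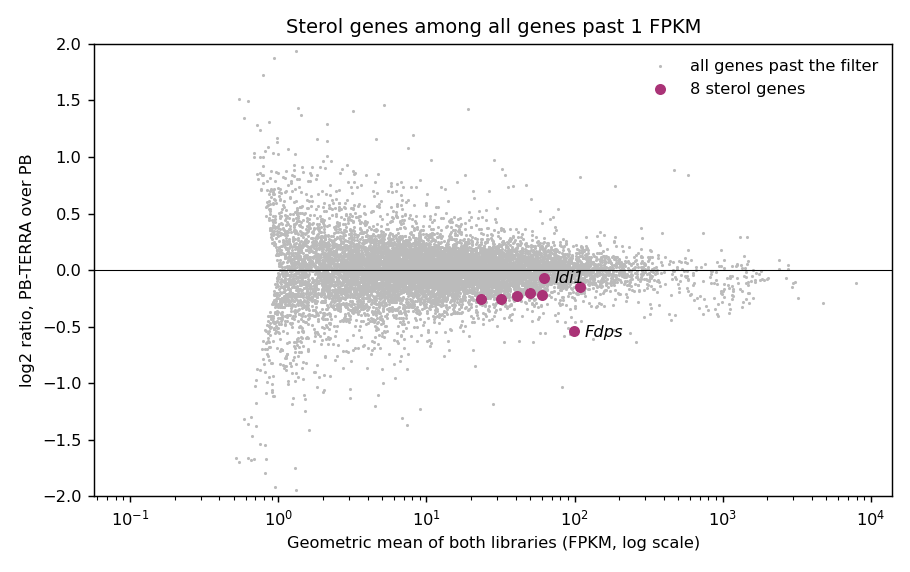
Log2 ratio of FPKM + 0.1, PB-TERRA over PB, against the geometric mean of both libraries (FPKM, log scale) for all genes past the filter (grey) and the 8 sterol genes (coloured). All 8 genes lie below 0 within the spread of the grey points, Fdps lowest (-0.54) and Idi1 nearest to 0 (-0.07). The ratio axis is limited, which leaves out 34 genes.

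Lists of other lipid genes were read beside the pathway, and beside the same shares of all genes, of which 50.9% were lower, 17.6% had an interval below 0 and 18.1% above it, and 9.6% were lower by at least 0.25. Of 12 genes of cholesterol uptake and trafficking past the filter, 8 were lower and 4 higher (median log2 ratio -0.15), and the interval lay below 0 for 7 and above 0 for 3. The lysosomal acid lipase gene Lipa had the lowest ratio of this list past the filter, with 5.37 and 4.18 FPKM (-0.35, -0.59 to -0.14), and the receptor gene Scarb1 was the other gene lower by at least 0.25 (17.09 and 13.46 FPKM, -0.34). These 2 become 4 without the filter, with Vldlr (0.41 and 0.26 FPKM, -0.50, -1.19 to -0.14) and Gramd1c (0.45 and 0.34 FPKM, -0.32, -1.13 to 0.38), and 1 with a mean of at least 5 FPKM. Osbp, an oxysterol-binding transfer protein, had the highest, with 13.65 and 15.29 FPKM (0.16, 0.06 to 0.26).

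Of 14 genes of fatty acid synthesis, which SREBP1 mainly controls, 11 were lower and 3 higher (median -0.18, all genes 50.9% lower), and the interval lay below 0 for 8 and above 0 for 1 (all genes 17.6% and 18.1%). Those lower by at least 0.25, as were 9.6% of all genes, were the desaturase genes Fads2 (43.37 and 33.04 FPKM, -0.39), Scd1 (38.11 and 30.51 FPKM, -0.32) and Fads1 (24.59 and 20.24 FPKM, -0.28). The elongase gene Elovl6 was higher, with 31.86 and 36.66 FPKM (0.20, 0.15 to 0.26).

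Genes of the isoprenoid branches that leave the pathway after Fdps or Idi1 were on both sides of 0. Of 10, 5 were higher and 5 lower (median -0.02), and the interval lay below 0 for 2 and above 0 for 2, near the shares of all genes (17.6% and 18.1%). With both libraries scaled to the same sum or with length bins or GC and length bins taken off, it lay below 0 for 1. Ggps1, which makes geranylgeranyl diphosphate, had 11.29 and 9.51 FPKM (-0.25, -0.42 to -0.08), and Fntb, the beta subunit of farnesyltransferase, had 23.92 and 26.53 FPKM (0.15, 0.05 to 0.25).

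Genes of sterol efflux, storage and oxysterol synthesis were in part too low to compare. The filter kept 8 of 13, with 3 higher and 5 lower (median -0.04), and the interval included 0 for 6. It lay below 0 for 1, the esterification gene Soat1 (13.35 and 11.83 FPKM, -0.17, -0.28 to -0.07), and above 0 for 1 (all genes 17.6% and 18.1%). Abca1, the cholesterol exporter that liver X receptors switch on when sterol is plentiful, had the largest ratio among the lipid lists, from 3.46 FPKM in PB to 6.33 FPKM in PB-TERRA (log2 ratio 0.85, 0.75 to 0.99, from 868 and 1594 reads). Abcg1, another target of these receptors, had 2.55 and 2.57 FPKM (0.01, -0.20 to 0.22), and Mylip, a ubiquitin ligase for lipoprotein receptors, had 1.77 and 1.44 FPKM (-0.28, -0.69 to 0.09).

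**Figure D4:**
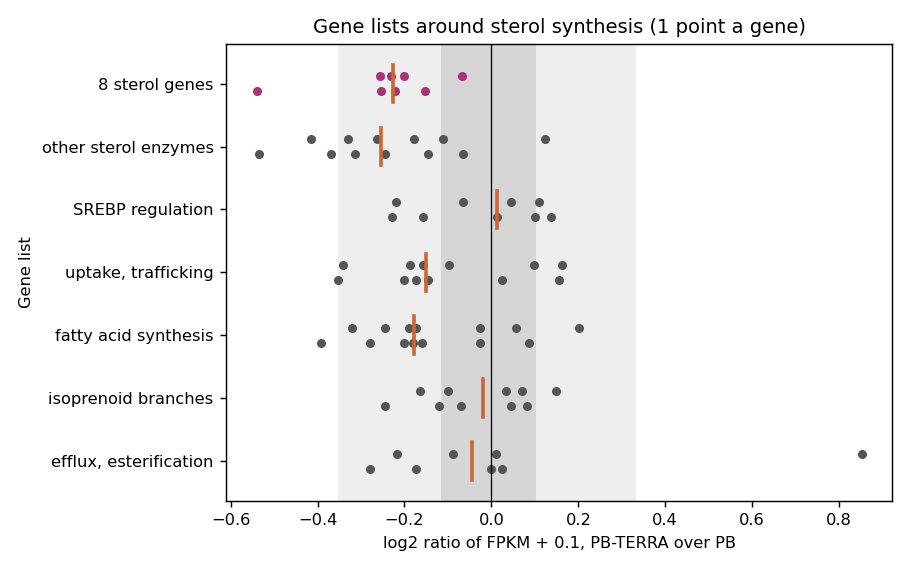
Log2 ratio of FPKM + 0.1, PB-TERRA over PB, of each gene past the filter in the 7 lists of lipid genes, with 1 point a gene and an orange bar at each median. The shaded bands are the middle 50% and 90% of all genes. The medians are -0.23 for the 8 sterol genes, -0.25 for the other sterol enzymes, -0.18 for fatty acid synthesis and -0.15 for uptake and trafficking, and lie within 0.05 of 0 for the remaining 3 lists, with Abca1 alone at the far right.

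Gene length moved with the ratios of all genes. Genes of the shortest length decile had a median log2 ratio of -0.06 and those of the longest one of 0.05, and 21.9% of the former against 2.44% of the latter were lower by at least 0.25. Fdps, at 1266 bases, is the shortest of the 8 genes, and Mvk and Pmvk are short as well (1876 and 1200 bases). With the median of genes of similar length taken off, the log2 ratio was -0.49 for Fdps, -0.48 for Mvk and -0.33 for Pmvk, and the median of the 8 genes was -0.25. With genes of similar GC content and length as the reference, the ratio of Idi1, a gene of 41.9% GC, moved from -0.07 to -0.16, that of Fdps was -0.50, and the 8 genes lay between -0.50 and -0.16 with a median of -0.20. All 8 remained lower under both corrections.

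**Figure D5:**
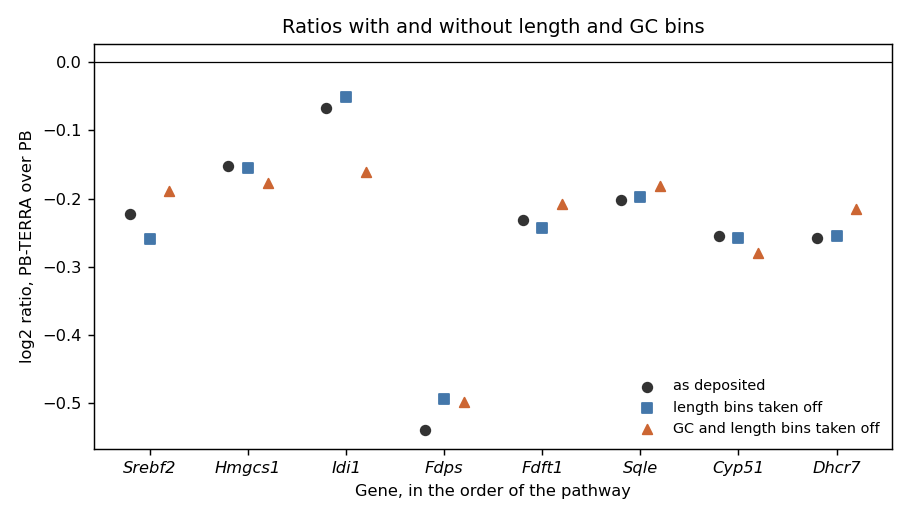
Log2 ratio, PB-TERRA over PB, of the 8 sterol genes as deposited (circles), with the median ratio of genes of similar length taken off (squares), and with that of genes of similar GC content and length taken off (triangles). All points lie below 0, those of Fdps are near -0.5, and Idi1 moves most (from -0.07 to -0.16).

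Markers of other cell types were low in both libraries. The summed level of 6 fibroblast markers was 18.72 FPKM in PB and 22.77 FPKM in PB-TERRA. Of the 3 past the filter, Col1a1 (log2 ratio 0.60, 0.50 to 0.71) and Col1a2 (0.53, 0.23 to 0.93) had an interval above 0, and Thy1 (-0.13, -0.34 to 0.09) did not. Col3a1, which did not pass the filter with 0.21 and 0.47 FPKM, also had an interval above 0 (0.88, 0.53 to 1.88), while those of Dcn (0.38 and 0.36 FPKM, -0.06) and Lum (0.06 and 0.04 FPKM, -0.19), likewise below the filter, included 0. The 6 visceral endoderm markers in the table summed to 4.35 and 5.3 FPKM. Of the 3 past the filter, Cubn (0.33, 0.19 to 0.50) had an interval above 0, while those of Rbp4 (0.33, -0.52 to 1.29) and Amn (0.17, -0.44 to 0.81) included 0. Below the filter, Alb was at 0.01 and 0.02 FPKM, Afp at 0.04 and 0.02 FPKM and Apoa1 at 0.09 and 0.05 FPKM. The 4 neural markers summed to 7.36 and 9.95 FPKM. Sox1 (0.52, 0.19 to 0.93) and Neurod1 (0.78, 0.49 to 1.10) had an interval above 0, that of Map2 included 0 (0.16, -0.04 to 0.37), and so did that of Pax6 (-0.26, -0.90 to 0.27), which did not pass the filter with 0.63 and 0.51 FPKM. The 5 stem cell markers ranged from Nanog (-0.10) to Esrrb (0.14), with a median of 0.05. The part of these differences in the lower levels of the sterol genes was not tested.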

How the data were processed

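The authors made 1 RNA library from each of the PB and PB-TERRA lines. Per the labels, the submitters' processing notes name HISAT, Cufflinks and the build mm9, without roles or versions, and the counting method and annotation are not given in the sources used here. The deposited table gives 1 value per gene and library, given to 2 decimals and never below 0.01. Its header names no unit, and the deposited values were read as FPKM made by the authors. The 4 columns of the authors' own comparison (log2 fold change, p-value, adjusted p-value and direction) were not used.

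Ratios are log2(FPKM + 0.1), PB-TERRA over PB, for genes with at least 1 FPKM in 1 library or both, and no test between conditions was possible. Reads were estimated from FPKM, the deposited gene length and the step of 1 read, fitted on values above 0.02 and below 1 FPKM of genes under 1200 bases that hold fewer than 6 reads, with a tolerance of 0.01 reads beyond rounding. The fit and the intervals were tested on simulated data. How reads were divided between overlapping or similar genes is not stated. The members, lists and thresholds of 1 and 0.25 were chosen with earlier results of these data known. Some genes of the pathway are not reported here. All genes left in the pathway and regulator lists are named, and of every other list those with the highest and lowest ratio and those past 0.5. Idi2, Scarb1, Scd1, Fads1, Abcg1, Soat1, Vldlr, Gramd1c, Rbp4, Pax6, the fibroblast and endoderm markers below the filter and the other stem cell markers were named after their values were seen, as was the range of 20 to 120 FPKM. Length correction used 50 bins. GC content came from GENCODE M21 transcripts (GRCm38), found for 93.5% of 12263 genes, in 10 by 10 bins of genes of at least 5 FPKM, a correction added after the data were seen. The tools were Python 3.11.15 with scipy 1.17.1, pandas 2.3.3, numpy 2.4.6 and matplotlib 3.10.9.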

Additional observations from a re-analysis of the deposited data

How the results depend on the processing

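With 1 library per condition, leaving out a library was not possible. The direction of all 8 genes and their median log2 ratio held under each pseudocount, scaling and correction, the median ranging from -0.25 with length bins to -0.19 with both libraries scaled to the same sum, a scaling that raised the median ratio of all genes by 0.04. The number of the 8 genes lower by at least 0.25 moved from 3 to 1 under that scaling, and that of all genes from 1177 to 947. For the 8 genes it was 6 with a threshold of 0.2 and 1 with a threshold of 0.3. The shares of all genes at these thresholds are not given, but 13.3% of all genes had a lower ratio than Sqle (-0.20). Over all alternatives the number lower by at least 0.25 ranged from 5 to 7 for the other sterol enzymes and from 2 to 5 for fatty acid synthesis. It ranged from 1 to 4 for uptake and trafficking and from 0 to 3 for efflux and esterification. For SREBP regulation it ranged from 0 to 2 and for the isoprenoid branches from 0 to 1. The number with an interval below 0 was 7 of 8, without Idi1, with both libraries scaled to the same sum and with length bins. For the list of SREBP regulation it moved from 4 to 2 under the same scaling, and for the isoprenoid branches from 2 to 1 under it and with either kind of bins. The same scaling moved it from 9 to 8 for the other sterol enzymes and from 8 to 7 for fatty acid synthesis. For uptake and trafficking it moved from 7 to 5 under the scaling and to 6 with GC and length bins. For SREBP regulation it was 3 with GC and length bins. Of the 8 genes, only the value of Idi1 moved beyond its counting interval, to -0.16 with GC and length bins. Among all genes, those past an absolute log2 ratio of 1 numbered 112, against 513 without a filter, 45 with a pseudocount of 1 FPKM, 63 with GC and length bins and 17 with a mean of at least 5 FPKM, and those lower by at least 0.25 numbered 1177, against 2750 without a filter and 523 with that mean. No paired analysis was possible because each condition has 1 library. Depth limits the genes near 1 FPKM, such as Tm7sf2, while each of the 8 genes has at least 1803 reads in both libraries.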
